A study of Homo sapiens with 9 samples.

Results

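The GATA factors are 6 zinc finger transcription factors, GATA1 to GATA6, and all 6 genes were members here, out of 19974 protein-coding genes. The rule lists them by name and uses no measured value, although earlier results of these data were known when it was written. Each gene was taken with 50 kb on both sides, and every accessible region in that window was read from the 3 deposited region lists. These windows held 61 of 122869 regions with shCHD4#1, 60 of 83241 with shCHD4#2 and 37 of 85775 with shScramble.

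The assay was ATAC-seq, a map of open chromatin made with the transposase Tn5, and the cells were SK-N-MC, an established Ewing sarcoma line. The groups were shCHD4#1 (hairpin 1) and shCHD4#2 (hairpin 2), which carry the genotype label CHD4 knockdown, and the control hairpin shScramble, labelled wildtype. All 3 groups carried an inducible short hairpin RNA and received 100 ng/ml doxycycline for 48 h, and each had 3 biological replicates, 9 samples in all. The data analysed here were 1 list per group, filed under replicate 1 and treated as the group's combined list, which is an inference. With 1 list a group there is no spread between replicates and hence no test of any difference below. The depth of reads behind the lists is unknown. ATAC-seq of bulk cells cannot tell more open cells from more openness per cell.

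GATA factors bind the DNA word WGATAR (W is A or T, R is A or G) through their zinc fingers. GATA1, GATA2 and GATA3 direct blood and lymphoid lineages, while GATA4, GATA5 and GATA6 act in the heart, and in gut and other endoderm-derived tissues. CHD4 is the ATPase of NuRD, a complex that couples nucleosome remodelling to histone deacetylation. Some GATA factors, GATA1 among them, recruit NuRD through the cofactor FOG1 (gene ZFPM1). NuRD is known for holding lineage genes silent in cells of another lineage.

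The start of GATA6 was listed as open with both hairpins and not with shScramble. Start sites from RefSeq matched GATA1, GATA2, GATA3 and GATA6, as 10 windows of 300 bases running from 250 bases before the start to 50 after it. Most of the 10 belonged to GATA3, and GATA4 and GATA5 had none. Only the GATA6 window, 1 of the 10, was touched with both hairpins and not with shScramble. That is near the share over all 22132 such windows of protein-coding genes, of which 8.72% had this pattern. By this call, which needs only a touch of the 300 bases, none of the 10 had the reverse pattern, which 2.44% of all windows had. At the single base of the start site the picture was mixed. GATA6 (22169589) lay in regions of both hairpins only, while GATA2 (128488530) and GATA3 (8053641) lay in regions of shScramble only. Cover of that base was not counted over all windows. One GATA2 and one GATA3 window were touched in all 3 lists, against 38.6% of all windows. Of the rest, 1 GATA3 window was touched with hairpin 2 only and 6 were touched in no list, against 33.7% of all windows.

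The 4 touched windows are shown because they carry the start-site differences. Sequences are RefSeq (GRCh38.p14), each 5′ to 3′ on the strand of its gene. Capitals in the first 3 mark bases inside a listed region with both hairpins. Capitals in the last mark bases inside a hairpin 2 region.
GATA6, chr18:22169339-22169638, plus strand: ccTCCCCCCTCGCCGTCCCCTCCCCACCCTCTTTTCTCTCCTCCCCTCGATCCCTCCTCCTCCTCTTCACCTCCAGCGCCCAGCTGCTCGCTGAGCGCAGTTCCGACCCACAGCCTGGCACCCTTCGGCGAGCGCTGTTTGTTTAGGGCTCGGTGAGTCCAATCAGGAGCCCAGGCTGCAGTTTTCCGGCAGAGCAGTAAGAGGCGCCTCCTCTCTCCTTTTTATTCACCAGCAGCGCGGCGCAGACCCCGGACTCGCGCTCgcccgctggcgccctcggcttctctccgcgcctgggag
GATA2, chr3:128488481-128488780, minus strand: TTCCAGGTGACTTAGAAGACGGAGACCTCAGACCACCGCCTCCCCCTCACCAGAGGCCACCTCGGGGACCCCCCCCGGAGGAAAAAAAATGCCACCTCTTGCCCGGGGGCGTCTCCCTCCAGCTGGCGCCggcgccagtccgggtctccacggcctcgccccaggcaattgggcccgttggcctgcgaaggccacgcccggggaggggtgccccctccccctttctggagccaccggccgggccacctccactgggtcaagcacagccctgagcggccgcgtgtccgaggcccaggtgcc
GATA3, chr10:8053391-8053690, plus strand: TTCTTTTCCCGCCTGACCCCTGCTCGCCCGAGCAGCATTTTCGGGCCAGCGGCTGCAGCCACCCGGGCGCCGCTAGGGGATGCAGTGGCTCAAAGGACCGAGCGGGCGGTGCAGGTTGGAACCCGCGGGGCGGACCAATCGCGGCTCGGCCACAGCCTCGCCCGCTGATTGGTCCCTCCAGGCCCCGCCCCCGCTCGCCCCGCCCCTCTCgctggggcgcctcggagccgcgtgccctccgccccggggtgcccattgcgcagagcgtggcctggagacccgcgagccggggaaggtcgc
GATA3, chr10:8054438-8054737, plus strand: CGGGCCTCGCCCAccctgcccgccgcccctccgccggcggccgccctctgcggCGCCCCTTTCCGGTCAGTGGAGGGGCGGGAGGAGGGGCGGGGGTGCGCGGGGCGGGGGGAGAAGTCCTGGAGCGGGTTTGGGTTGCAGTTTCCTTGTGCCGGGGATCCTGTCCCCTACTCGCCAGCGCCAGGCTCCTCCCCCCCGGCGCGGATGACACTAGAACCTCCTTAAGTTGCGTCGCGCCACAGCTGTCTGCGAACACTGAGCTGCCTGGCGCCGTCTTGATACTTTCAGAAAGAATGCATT

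In the GATA6 window, 260 of the 300 bases lay in a region of both hairpins, including the start site at 22169589, and 0 lay in a shScramble region. In the GATA2 window, 130 bases lay in a region of all 3 lists, and the start site at 128488530 was covered with shScramble but with neither hairpin, whose regions stopped short of it on either side. In the first GATA3 window, 210 bases were in regions of all 3 lists, and the start site at 8053641 was again inside the shScramble region and just outside the hairpin regions. In the last, the start site at 8054688 was covered with hairpin 2 alone. The 4 windows held 25, 22, 36 and 29 CpG dinucleotides in the order printed, against a median of 21 over all 22132 windows. The word GATA with A or T before it and A or G after it, searched on both strands, occurred in 0 of the 10 windows of GATA genes and in 4419 of all 22132 windows. That says only that these letters are not in these windows.

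Over the whole windows, 4 of the 6 genes, GATA1, GATA2, GATA5 and GATA6, exceeded the shScramble number of regions with each of the hairpins. The same count over all protein-coding genes called 35.3%. None of the 6 had fewer with both, against 12.0% of all genes. With hairpin 1, 5 had more regions and 0 had fewer, and the shares over all genes were 71.1% and 14.6%. The hairpin 1 list is the longest of the 3. With hairpin 2, 5 had more and 1, GATA4, had fewer, against 38.3% and 41.6% of all genes. On the log2 scale, with 1 added to both numbers, the median ratio to shScramble was 0.71 with hairpin 1 and 0.88 with hairpin 2 over the 6 genes, and 0.36 and 0 over all genes. With a flank of 5 kb in place of 50 kb, 3 genes had more regions with both hairpins, since GATA1 then had equal numbers with hairpin 2 and shScramble. The excess at GATA2 was then 2 and 1 regions and at GATA5 1 and 1. The share of all genes was not counted with this flank.

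**Figure D1:**
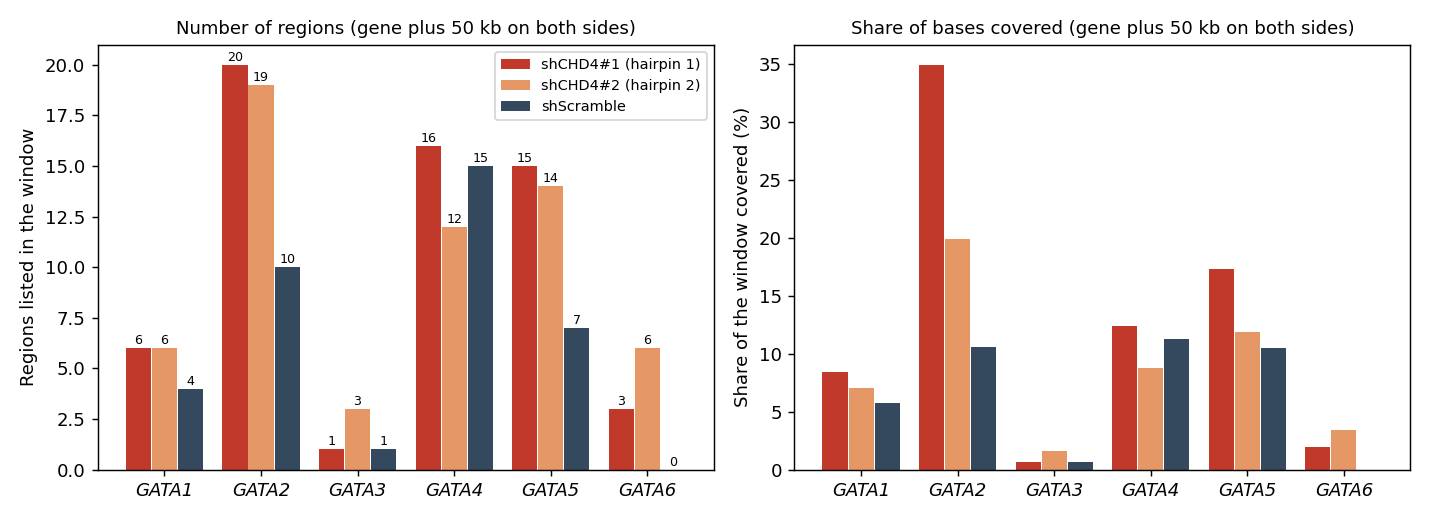
Left: number of regions listed per gene window in the hairpin 1, hairpin 2 and shScramble lists (bars, 1 list each, no error). Right: share of the window's bases covered, in percent. GATA2 stands out with 20 and 19 regions against 10, and GATA6 has 3 and 6 against 0, while GATA4 has 16 and 12 against 15.

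The windows together held 1.65 times as many regions with hairpin 1 as with shScramble and 1.62 times as many with hairpin 2. The whole lists stood at 1.43 and 0.970 times. Bases covered were 94.2 kb with hairpin 1, 66.2 kb with hairpin 2 and 51.4 kb with shScramble, or 1.83 and 1.29 times the control. The hairpin 2 excess was thus smaller in bases than in regions, and its regions were shorter, with a median of 870 bp against 1290 bp with hairpin 1 and 1160 bp with shScramble. The whole hairpin 2 list was shorter in the same way, with a median of 1040 bp against 1390 bp with hairpin 1 and 1450 bp with shScramble.

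**Figure D2:**
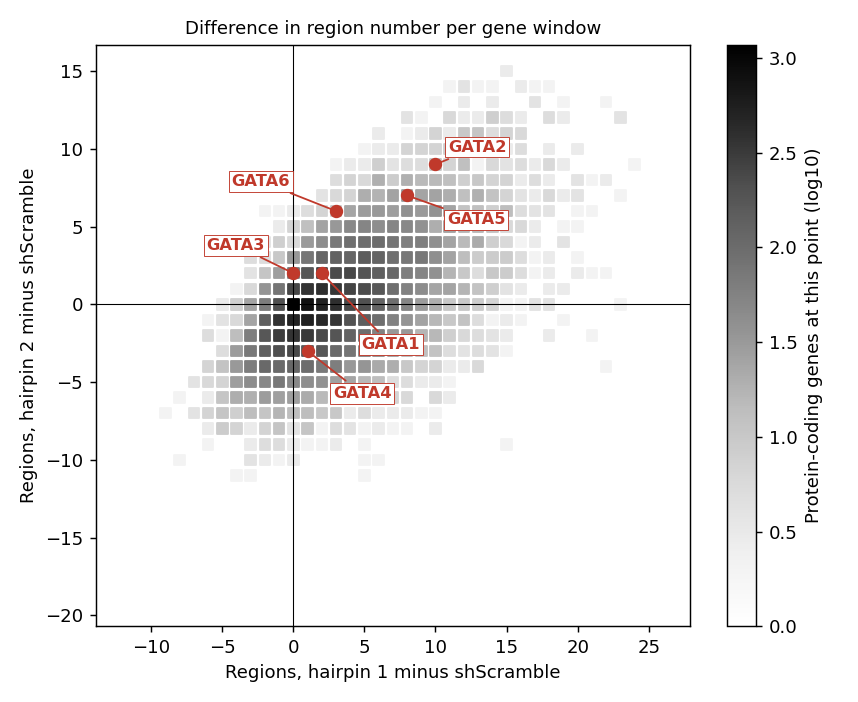
Difference in region number per gene window, hairpin 1 minus shScramble across and hairpin 2 minus shScramble upward, for all protein-coding genes (grey squares, darker with more genes on a log10 scale; 33 of 19974 genes lie outside the axes) and the 6 GATA genes (red). GATA2 and GATA5 lie far up the diagonal, GATA4 lies below zero for hairpin 2, and both differences use the same control list.

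Regions that share at least 1 bp were merged across the lists, which left 61 merged regions in the windows. Of these, 15 were gained, meaning listed with both hairpins and not with shScramble. That is 24.6%, against 10.0% of all 130785 merged regions and 10.1% of those in the same kind of window around any protein-coding gene. Lost regions, listed with shScramble only, numbered 5, or 8.20%, against 10.5% and 10.3%. A further 20, or 32.8%, were in all 3 lists, against 33.2% of all merged regions. With hairpin 1 only there were 9, or 14.8%, against 29.0%, and with hairpin 2 only 7, or 11.5%, against 5.44%. Absent with hairpin 2 only were 5, or 8.20%, against 9.11%, and absent with hairpin 1 only 0, against 2.70%. At least 1 gained region lay at 5 genes, all but GATA3, against 58.5% of all genes, and at least 1 lost region at 4 genes, against 58.3%.

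**Figure D3:**
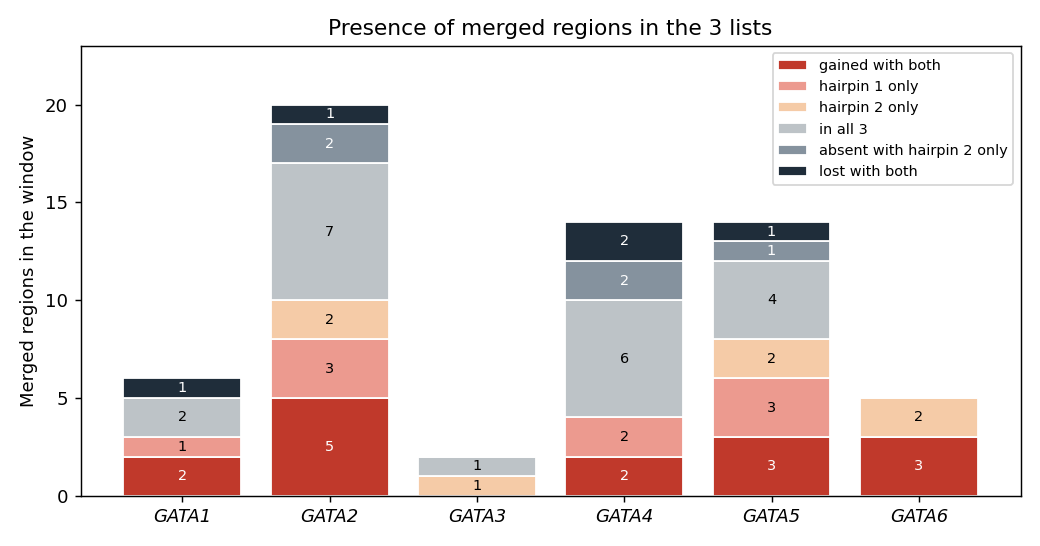
Merged regions per gene window by the lists that hold them (stacked bars, numbers in the bars are regions). Gained regions are most numerous at GATA2, with 5, and absent at GATA3, and GATA6 has no region that shScramble shares.

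Most gained regions lay well apart from control regions, and 3 of the 5 lost ones lay within 320 bp of a hairpin region. The gap between a gained site and its closest control region had a median of 15590 bp and ran between 220 and 109100 bp. The gap between a lost site and its closest hairpin region had a median of 320 bp and ran between 20 and 23240 bp. The second kind of gap was measured against 2 lists and the first against 1, so they are not like for like. Gaps were not measured for gained and lost merged regions outside these windows, so neither has a background. Of the 15 gained regions, 5 touched the GATA gene itself and 10 lay in a flank. None of the 15 reached an authors' p of at most 0.05 in either hairpin list, and none of the 5 lost ones did with shScramble. A p of at most 0.05 was held by 11.9% of the hairpin 1 list, 13.1% of the hairpin 2 list and 12.6% of the shScramble list. These shares include regions present in all 3 lists. The shares among all gained and all lost merged regions were not counted, so the zeros have no like background. Below that limit the gained regions were spread widely, between the 17.0% and 91.6% points with hairpin 1 (median 39.8%) and the 19.5% and 91.5% points with hairpin 2 (median 51.0%). The lost ones stood between the 59.1% and 69.0% points with shScramble. With regions of p at most 0.05 only, 1 gene had more regions with both hairpins and 1 merged region was gained. The shares over all genes and all merged regions were not counted at that limit.

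**Figure D4:**
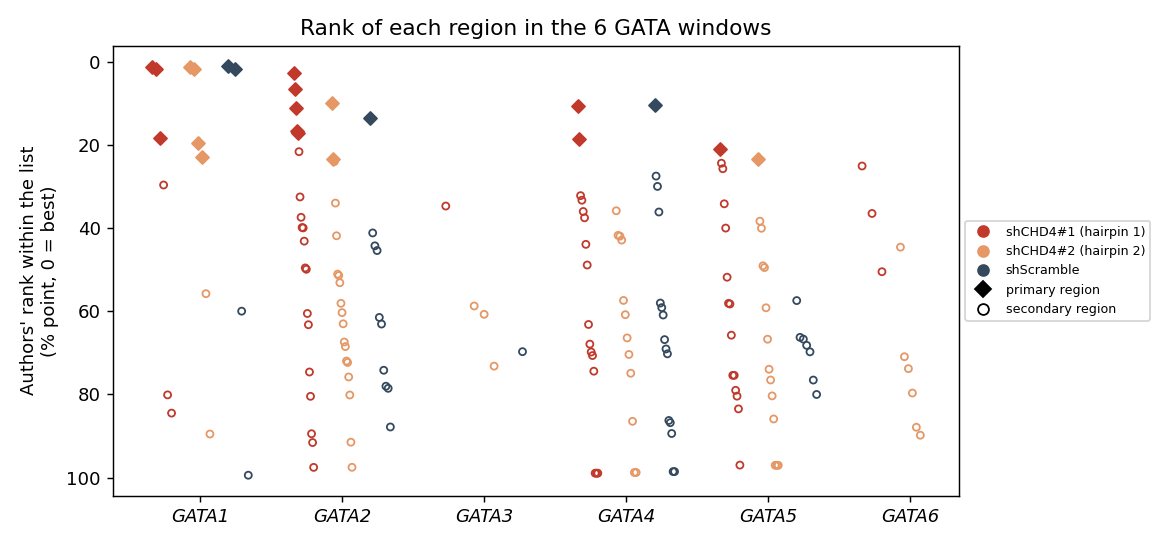
Rank of every region in its own list, as the percent point counted from the best region (0) to the last (100), by gene and list. Filled diamonds are regions that the deposited names call primary and open circles those called secondary; ranks are read within a list, since the lists differ in length. GATA1 has the best-ranked regions in all 3 lists, and GATA3 and GATA6 have secondary regions only.

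GATA1, the master factor of red cells and platelets (chromosome X, 48786590 to 48794311), was itself almost without listed regions. Its window held 6 regions with hairpin 1, 6 with hairpin 2 and 4 with shScramble, but inside the gene there was 1, 0 and 0. The region inside, 48791071 to 48793360, was listed with hairpin 1 only, at the 80.1% point of that list. The best-ranked regions of the window belonged to neighbouring sites and were in all 3 lists. One, 48800121 to 48803590, overlapped HDAC6, a cytoplasmic deacetylase gene, at the 1.22%, 1.23% and 1.58% points. The other, 48736351 to 48738680, lay 47.9 kb on the low-coordinate side and overlapped no annotated gene, at the 1.76%, 1.65% and 1.05% points.

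Both gained regions of the GATA1 window lay far from the gene, in or beyond PCSK1N, which encodes an inhibitor of a prohormone convertase. The first, 48834011 to 48835290, was inside PCSK1N and 39.7 kb from GATA1, ranked at the 84.5% point with hairpin 1 and the 89.5% point with hairpin 2. The second, 48835661 to 48836960, overlapped no annotated gene and held 2 regions of each hairpin list, at best at the 18.2% and 19.5% points. The lost region, 48761681 to 48762430, overlapped GLOD5 and stood at the 60.0% point of the shScramble list. No part of the GATA1 gene was gained with both hairpins.

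GATA2, which maintains blood stem and progenitor cells (chromosome 3, 128479422 to 128493201), had the most regions and the most gained ones. There were 20 regions with hairpin 1, 19 with hairpin 2 and 10 with shScramble. They covered 34.9%, 19.9% and 10.6% of the window. Of all protein-coding genes, 4.50% had at least as many gained regions as its 5. The gene itself held 4, 4 and 2 regions. Neither end of the gene was covered in any list.

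Most of the gained regions at GATA2 formed a row in the low-coordinate flank, past the end of the gene. They spanned 128438171 to 128439410, 128448171 to 128452100, 128454691 to 128457190 and 128457451 to 128459850. From the first to the last of these shScramble listed nothing, and their gaps to its nearest region were 6990, 16990, 15590 and 12930 bp. The first ranked best of the 4 in both lists, at the 17.0% and 24.0% points. The remaining ones stood at the 91.6%, 39.8% and 74.6% points with hairpin 1 and at the 58.1%, 51.0% and 91.5% points with hairpin 2. The fifth gained region, 128491401 to 128492530, lay inside the gene and its antisense partner GATA2-AS1, only 280 bp from a shScramble region.

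Inside GATA2, 2 merged regions were in all 3 lists. The first, 128481311 to 128489870, holds the start-site window printed above. It consisted of 2 hairpin 1 regions, 2 hairpin 2 regions and 1 shScramble region, at best at the 16.6%, 23.3% and 74.2% points. Much of its length came from 1 hairpin 1 region of 7170 bp that stood at the 97.5% point. The second, 128489981 to 128491220, had 1 region in each list, at the 37.4%, 41.8% and 44.2% points.

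In the GATA2 flanks, 5 more merged regions were in all 3 lists. On the low-coordinate side these were 128429621 to 128432410, at the edge of the window, and 128472121 to 128474260, which lay 5.16 kb from the gene in DNAJB8-AS1. That site in DNAJB8-AS1 was the only one of the 61 whose authors' p was 0.05 or less for each hairpin but not for shScramble, at 0.0114, 0.0257 and 0.425. The GATA4 site 11800461 to 11808680 had the reverse, with best values of 0.378, 0.954 and 0.0316. The share of all merged regions with either pattern was not counted. On the high-coordinate side they were 128497941 to 128500700, 128519481 to 128524500 and 128536441 to 128537910. Best ranks of these 3 stood at the 43.1%, 11.1% and 21.6% points with hairpin 1, the 60.3%, 68.5% and 53.1% points with hairpin 2 and the 45.4%, 78.0% and 87.8% points with shScramble.

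The other GATA2 sites were listed by 1 or 2 lists. Hairpin 1 alone listed 128433821 to 128437220, 128462681 to 128463270 at the heat shock cochaperone gene DNAJB8, and 128506741 to 128509150. Hairpin 2 alone listed 128439561 to 128440950 and 128502951 to 128503740. Absent with hairpin 2 only were 128474311 to 128475240 and 128503961 to 128506710. The single lost region, 128501411 to 128502930, ended 20 bp before a hairpin 2 region. Exact borders thus decided how that stretch was counted.

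**Figure D5:**
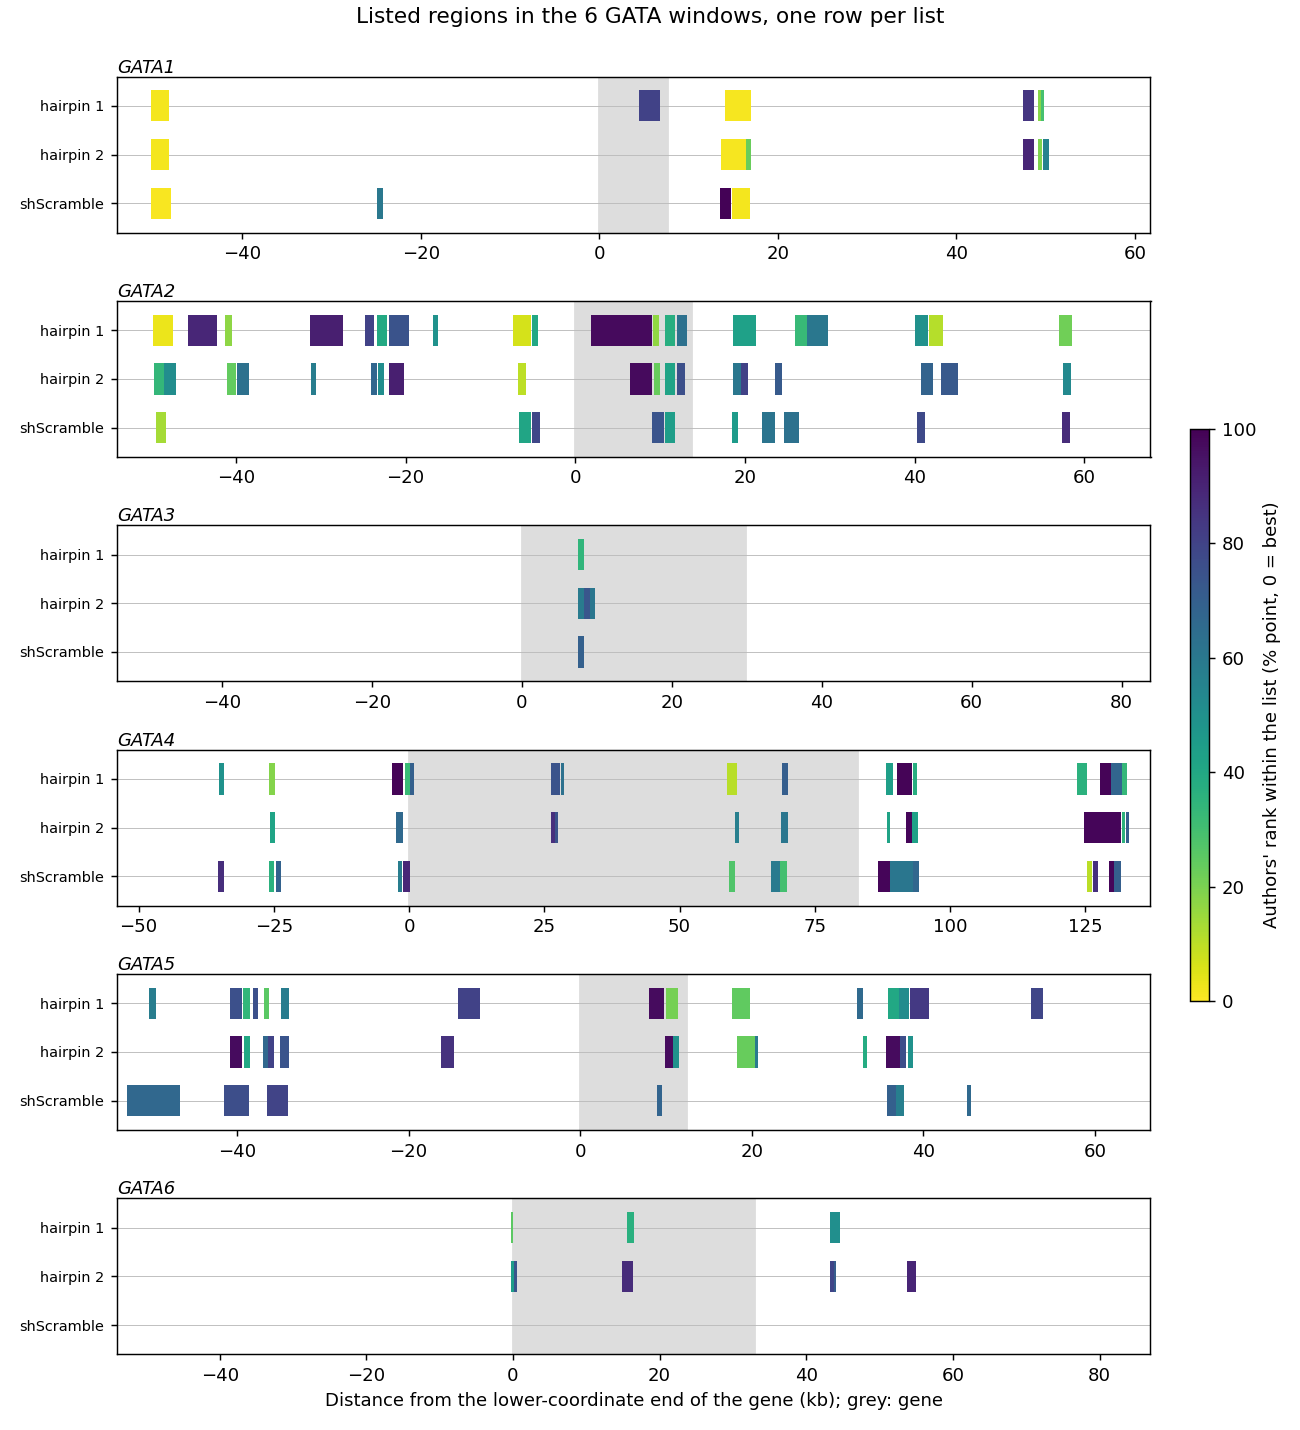
Every listed region in the 6 windows, 1 row per list (hairpin 1, hairpin 2, shScramble from top), by distance in kb from the lower-coordinate end of the gene; grey is the gene and the colour is the rank within the list (yellow best, dark last). The GATA2 panel shows a row of hairpin regions to the left of the gene, down to 19.6 kb from it, where the shScramble row is empty, and the shScramble row of GATA6 is empty throughout.

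GATA3, the factor of helper T cells and of breast and kidney epithelium (chromosome 10, 8045333 to 8075198), had the fewest merged regions of the 6 windows, with 2. It held 1 region with hairpin 1, 3 with hairpin 2 and 1 with shScramble, all inside the gene and none in either flank. The hairpin 1 region spanned 8052781 to 8053610, the first hairpin 2 region 8052871 to 8053600, and the shScramble region 8052781 to 8053670. These stood at the 34.7%, 58.7% and 69.7% points of their lists. Hairpin 2 alone extended further into the gene, with regions of 8053661 to 8054450 and 8054491 to 8055040. These last 2 flank and cover the start site printed last. Nothing at GATA3 was gained with both hairpins or lost with both.

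GATA4, the heart and endoderm factor (chromosome 8, 11676935 to 11760002), is the longest of the genes and the only one with fewer regions with hairpin 2 than with shScramble. Its window held 16 regions with hairpin 1, 12 with hairpin 2 and 15 with shScramble, of which 6, 4 and 4 touched the gene. The covered share was 12.4%, 8.74% and 11.2%. Of all genes, 88.7% had no more shScramble regions than its 15. When each list was cut to its best 83241 regions, the length of the shortest list, the numbers were 9, 12 and 13, so hairpin 1 then also stood below shScramble.

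At the low-coordinate end of GATA4, the merged region 11675881 to 11677160 was listed with hairpin 1 and shScramble and was absent with hairpin 2. It stood at the 32.2% point with hairpin 1 and the 89.4% point with shScramble. Next to it, 11677171 to 11677890 was listed with hairpin 1 only. Just outside the gene, 11673831 to 11675850 was in all 3 lists. Deeper in the gene, 11735621 to 11737930 and 11745521 to 11746980 were in all 3 lists. The first of these was the best-ranked one inside the gene in each list, at the 10.7%, 57.4% and 27.4% points.

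Gained and lost regions were equal in number at GATA4, with 2 each. Gained were 11703121 to 11704770 inside the gene, ranked at the 74.4% point with hairpin 1 and the 74.9% point with hairpin 2, and 11808681 to 11810120 in FDFT1, which encodes squalene synthase. Lost were 11652321 to 11653250 in the flank and 11743831 to 11745440 inside the gene, which lay 240 and 320 bp from a hairpin region. Hairpin 1 alone listed 11705091 to 11705650, over the small nucleolar RNA gene SNORA99. In the flanks, 11641651 to 11642750 was absent with hairpin 2 only. Those in all 3 lists were 11651051 to 11652080, 11763691 to 11771270 at the DNA glycosylase gene NEIL2, and 11800461 to 11808680 at FDFT1.

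GATA5, the endocardial and gut factor (chromosome 20, 62463497 to 62475995), had about as many regions again with each hairpin as with shScramble. The numbers were 15 with hairpin 1, 14 with hairpin 2 and 7 with shScramble, covering 17.3%, 11.9% and 10.4% of the window. The gene itself held 2, 2 and 1. Its 3 gained regions lay inside the gene or on its high-coordinate side. At least as many were found at 16.2% of all genes.

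The first gained region at GATA5, 62473401 to 62475040, lay inside the gene near its high-coordinate end. It was 1 region with hairpin 1, at the 21.0% point, and 2 regions with hairpin 2, at best at the 49.0% point. The second, 62481261 to 62483870, lay 5.27 kb beyond the gene, at the 24.4% and 23.3% points. The third, 62495811 to 62496980, lay 19.8 kb beyond it, at the 65.7% and 38.3% points. Gaps to the nearest shScramble region were 340, 8200 and 2270 bp. The control region next to the first one spanned 62472501 to 62473060. It merged with a wider hairpin 1 region into 62471531 to 62473220, a site absent with hairpin 2 only.

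Of the other GATA5 sites, 4 were in all 3 lists. These were 62407061 to 62416870, whose hairpin 2 regions lie outside the window, 62421981 to 62424990 and 62426511 to 62429590, all at RBBP8NL, and 62499121 to 62504140 in the other flank. Hairpin 1 alone listed 62425321 to 62425960, 62449241 to 62451880 and 62516101 to 62517500. Hairpin 2 alone listed 62447221 to 62448810 and 62483901 to 62484250. The lost region was 62508571 to 62509050, at the 66.3% point of the shScramble list and 4430 bp from a hairpin region. Of the 6 low-coordinate sites, 4 lay at RBBP8NL, so the number for the window is not that of GATA5 alone. The other two, at 62447221 and 62449241, overlapped no annotated gene and were listed with 1 hairpin each.

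GATA6, needed for definitive endoderm, heart and pancreas (chromosome 18, 22169589 to 22202528), had no shScramble region anywhere in its window of 133 kb. There were 3 regions with hairpin 1 and 6 with hairpin 2, which covered 1.95% and 3.42% of the window. A window without a shScramble region was found at 4.17% of all genes, and one with at least 1 region of both hairpins besides at 0.921%. GATA6 was the only member of either kind. All of its hairpin regions were secondary regions in the deposited names.

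The start region of GATA6 was 22169311 to 22169600 with hairpin 1, at the 25.0% point, and 22169341 to 22169670 with hairpin 2, at the 44.5% point. A second hairpin 2 region, 22169671 to 22170200, followed directly. Inside the gene, hairpin 1 listed 22185101 to 22186050 and hairpin 2 listed 22184391 to 22186000, at the 36.4% and 87.9% points. Beyond the gene, 10.3 kb away, hairpin 1 listed 22212811 to 22214160 at the 50.5% point. Hairpin 2 listed 22212801 to 22213330 and 22213331 to 22213680 there, at best at the 70.9% point. Hairpin 2 alone listed 22223321 to 22224510, at the 89.8% point. The 3 gained regions were shared in place by both hairpins, which is how gained is defined. Their nearest shScramble regions were 65610, 80690 and 109100 bp away, and long gaps follow from the empty shScramble window. With the best 20000 regions of each list, GATA6 had 0 regions in all 3 lists.

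Few genes had the same 3 numbers of regions as a GATA gene. For GATA6 there was 1, NEUROG2, a proneural factor, with 3, 6 and 0. GATA2 shared its numbers with CDHR5 and UBE2S only, and GATA4 with UCK2 only. GATA5 shared its numbers with 4 genes, of which LRWD1 and POLR2J are nearest in window length, GATA3 with 7 (nearest ASPA and LOC105376722) and GATA1 with 21 (nearest RNASE11 and OTX2). Likeness here is over 3 lists.

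Genes that work with GATA factors, or are controlled by them in other tissues, were counted in the same windows. The background is again all genes, of which 35.3% had more regions with both hairpins and 12.0% had fewer. Of 26 cofactors and partners, 11 had more and 2 fewer, with median log2 ratios of 0.64 and 0. The cofactor gene ZFPM1 had 31 regions with hairpin 1, 26 with hairpin 2 and 21 with shScramble. Its window had 7 gained and 0 lost merged regions. The related gene ZFPM2, on the same list, had 20, 10 and 12 regions, so fewer with hairpin 2 than with shScramble. It had 0 gained and 2 lost merged regions. The largest mean ratios were at the pioneer factor genes FOXA1 (7, 4 and 2 regions) and FOXA2 (3, 0 and 0), at FLI1 (11, 10 and 6), the partner of EWSR1 in the fusion of this tumour, and at TCF3 (26, 21 and 15). Of 9 genes with a GATA-like zinc finger, 5 had more and 0 fewer. These were led by MTA1, a NuRD subunit with 32, 26 and 13 regions and 8 gained ones, then TRPS1 (15, 10 and 7), ZGLP1 (19, 14 and 11) and GATAD2A (31, 25 and 22). The medians of this list were 0.48 and 0.05. The share of all genes with as many gained regions as ZFPM1 or MTA1 was not counted.

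Of 27 blood targets of GATA1, GATA2 and GATA3, 14 had more regions with both hairpins and 6 had fewer, with median log2 ratios of 0.54 and 0.11. Both shares were above those of all genes, 35.3% and 12.0%. The largest mean ratios rested on very few regions. IL1RL1, the interleukin-33 receptor, had 3, 1 and 0. The globin genes HBD, HBG1 and HBG2 had 2, 1 and 0 each, in overlapping windows that share those regions. Of 26 heart, gut and endoderm targets of GATA4, GATA5 and GATA6, 12 had more and 2 fewer, with medians of 0.54 and 0.26. Here CXCR4, a chemokine receptor, had 8, 5 and 2, FABP2, an intestinal fatty acid carrier, had 4, 3 and 1, the intestinal disaccharidase gene SI had 1, 1 and 0, and FOXA2, given above, is on this list too. Neighbouring genes with overlapping windows, such as NPPA and NPPB or MYH6 and MYH7, were counted separately, so these counts are not of independent genes. Some genes stand in more than 1 list, and no list was tested.

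Markers of the cell line and of cells that use GATA factors were checked by whether a region lay within 1 kb of either gene end. Over all protein-coding genes, 73.0% were covered in this way with hairpin 1, 68.4% with hairpin 2 and 64.8% with shScramble. Of 10 Ewing sarcoma genes, 9 were covered with hairpin 1, 10 with hairpin 2 and 10 with shScramble. Of 6 erythroid and megakaryocyte genes the numbers were 2, 0 and 1, and of 4 T cell genes 2, 2 and 2. Of 4 cardiomyocyte genes they were 2, 3 and 1, and of 4 hepatocyte and endoderm genes 2, 1 and 0. At the targeted gene CHD4, the window held 19, 17 and 16 regions. The extent of the CHD4 knockdown cannot be read from such lists.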

How the data were processed

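Per the submitters' processing notes, the tools were BWA, deepTools 3.2.1, SAMtools 1.9, FastQC 0.11.7 and Trimmomatic 0.36, and the builds GRCh38 and dm6. Not given in the sources used here are the peak caller, any Tn5 shift of read ends and any scaling to the Drosophila S2 spike-in. Each deposited region has 2 scores from the authors and a p-value and a q-value, and each list is sorted by the p-value. These values served for ranks and filters inside 1 list at a time. The lists hold no read counts, so depth and its precision are unknown.

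Regions on chromosomes 1 to 22 and X were kept. A region counted for a gene when it shared at least 1 bp with the RefSeq gene (GRCh38.p14) extended by 50 kb, and regions were merged across lists by the same overlap. Backgrounds are all protein-coding genes and all merged regions. Named genes are the 6 members, genes in their windows, genes with the same region numbers and cell type markers. In each gene list, the 4 with the highest mean log2 ratio over both hairpins were also named. ZFPM1, ZFPM2, NPPB and MYH7 were added after their values were seen. The members and gene lists were chosen with earlier results of these data known. Overlap counts and presence patterns were tested on simulated data, where 5000 of 5000 patterns and 500 of 500 counts were recovered. The simulated sites lay far apart, with at most 1 region per list. Split regions and regions close to each other, as in these windows, were therefore not tested. Tools were Python 3.11.15, pandas 2.3.3, NumPy 2.4.6 and matplotlib 3.10.9.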

Additional observations from a re-analysis of the deposited data

How the results depend on the processing

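No paired analysis was possible because the data are 1 region list per group, so no replicate could be left out either. The number of gained regions in the windows, 15, was 5 with a flank of 5 kb, 24 with 100 kb, 1 with an authors' p of at most 0.05 in every list, 1 with the best 20000 regions, and 0 when presence needed that p and absence held at any score. Lost regions, 5 in number, were 1 with a flank of 5 kb, 1 with the best 20000 regions, 1 under the same limit on p, 2 when regions within 500 bp were joined, and 0 with presence at that p. The number of genes with more regions with both hairpins, 4, was 1 with either of these filters on rank or p. Shares over all genes and all merged regions were counted with a flank of 50 kb and the full lists only. The ratio to shScramble over the windows ranged from 1.21 to 2.00 with hairpin 1 and from 1.00, at a p of at most 0.05, to 2.00 with hairpin 2. The shorter windows and lists hold fewer regions by construction. At GATA4, hairpin 1 minus shScramble turned to -4 with the best 83241 regions of each list. Gene by gene, 44 differences from shScramble held, 39 moved and 1 reversed. Held does not mean identical, since hairpin 1 minus shScramble at GATA2 counted as held at 15 with a flank of 100 kb, against 10. The 44 include every difference under 2 settings that left all gene values unchanged. The first removed very long regions and those given a negative value by the authors, and the windows held 0 of these. The second placed regions by their centre. Without these 2 settings, fewer than 44 held. With a flank of 5 kb, hairpin 1 and hairpin 2 minus shScramble were 2 and 1 at GATA2, against 10 and 9 with 50 kb, and 1 and 1 at GATA5, against 8 and 7. At GATA1 they were 1 and 0, against 2 and 2. With the best 83241 regions, the hairpin 1 difference was 5 at GATA2 and 2 at GATA5. Unknown depth limits every count, since a deeper library lists more weak regions.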

Other observations

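At GATA5, region number and bases covered gave different contrasts for hairpin 2, with 14 regions against 7 with shScramble but 13.4 kb against 11.8 kb. At GATA2 and GATA4 both measures went alike. GATA2 had 19 regions and 22.7 kb with hairpin 2, against 10 regions and 12.1 kb with shScramble, and GATA4 had 12 regions and 16.0 kb against 15 regions and 20.6 kb. Splitting of a wide region into several short ones raises the number without adding bases, and its part in the result was not tested. At GATA6 the hairpin 2 list gave 5 merged regions and the hairpin 1 list 3, and neither covered more than 4.54 kb. Primary regions, by the deposited names, were 11 of 61 with hairpin 1, 7 of 60 with hairpin 2 and 4 of 37 with shScramble in the 6 windows, or 18.0%, 11.7% and 10.8%, against 21.5%, 23.4% and 22.6% of the whole lists.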
